A study of Rattus norvegicus with 16 samples.

Results

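The left ventricle of rats that had lost most of their kidney mass was followed at 2, 4, 5 and 7 weeks after surgery. These were 8 of the 16 small RNA libraries of the series, chosen by surgery and week alone. All rats were male Sprague Dawley, ate 0.4% Dyets chow and were operated on at 10 weeks of age. In 5/6Nx, the excision form of 5/6 nephrectomy, most of the renal tissue is cut away, and the sham rats had surgery without that loss. Each of the 4 weeks held 2 pools of 5/6Nx ventricle (pools A and B) and 2 pools of sham ventricle, and each pool combined 2 to 3 rats. No label says whether the pools of a week came from separate rats, so the p-values describe only how far such pools vary. Each week's counts stand in a table of their own, so that week cannot be told apart from anything in library preparation or sequencing that was done week by week.

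MicroRNAs (miRNAs) are short RNAs that guide Argonaute proteins to messenger RNAs, mainly by pairing of the seed, bases 2 to 8 from the 5′ end. One hairpin gives a 5p and a 3p arm, of which one is usually kept in much larger amounts. In the heart, miR-1, miR-133a, miR-208a and miR-499 belong to cardiomyocytes, while miR-21, miR-132, miR-212, miR-199a, miR-221 and miR-222 are known from studies of cardiac fibrosis and hypertrophy, and the miR-29 family represses collagen genes. A ventricle holds many cell types, and more cells of a type cannot be told apart from more of a miRNA per cell.

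The miRNAs on which the results at week 7 turn are shown first, with the seed in capitals, because several of them share one. Sequences are from RefSeq with positions on GRCr8, written 5′ to 3′. miR-146a-5p lies at chr10:28350053-28350074 (minus strand) and miR-146b-5p at chr1:255144874-255144897 (plus strand), miR-21-5p lies at chr10:71902653-71902674 (minus strand), and the miR-208 pair lies within the bounds of the myosin genes Myh6 and Myh7 at chr15:32395568-32395585 and chr15:32421648-32421665 (minus strand). miR-221-3p and miR-222-3p lie at chrX:6023246-6023268 and chrX:6022682-6022702, and miR-132-3p and miR-212-3p at chr10:60522091-60522112 and chr10:60521811-60521832, all on the plus strand.
miR-146a-5p: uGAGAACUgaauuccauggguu
miR-146b-5p: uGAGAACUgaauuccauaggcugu
miR-21-5p: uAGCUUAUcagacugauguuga
miR-208a-3p: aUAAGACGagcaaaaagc
miR-208b-3p: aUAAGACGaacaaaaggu
miR-221-3p: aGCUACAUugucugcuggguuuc
miR-222-3p: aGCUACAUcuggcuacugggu
miR-132-3p: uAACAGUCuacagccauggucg
miR-212-3p: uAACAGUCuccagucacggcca

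A further set is shown because its members rose or fell between the early weeks. miR-191a-5p lies within Dalrd3 at chr8:118142641-118142663, miR-126a-5p within the endothelial gene Egfl7 at chr3:29813182-29813202 and let-7f-5p at chr17:16320508-16320529 and within Huwe1 at chrX:24460052-24460073, all on the plus strand. miR-338-3p and miR-3065-5p are read from opposite strands of one hairpin site within Aatk, at chr10:105796345-105796367 and chr10:105796345-105796364.
miR-191a-5p: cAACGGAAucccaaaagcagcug
miR-126a-5p: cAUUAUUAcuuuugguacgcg
let-7f-5p: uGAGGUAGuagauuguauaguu
miR-338-3p: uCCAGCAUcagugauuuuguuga
miR-3065-5p: uCAACAAAaucacugaugcu
Of the 306 miRNAs tested, 277 had a RefSeq sequence, and 22 pairs lay on opposite strands of the same place with at least 15 bases in common. Among these, miR-9a-5p with miR-9b-3p was counted at more than 1 place. Counts of 8 of these pairs kept 1 ratio within 10% in every library, which was looked for only among miRNAs with a mean of at least 20 counts. The strand setting of the counting is not given in the sources used here, so such a pair, like miR-338-3p with miR-3065-5p, is treated as 1 signal.

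A 5/6Nx pool held 1239829 to 3509916 counts on rat miRNAs, with 1625699 and 1365890 in the week 7 pools. The week 7 table lists 325 rat miRNAs where the others list 358. The cardiomyocyte markers miR-1-3p, miR-133a-3p, miR-208a-3p and miR-499-5p together held 37013 to 69008 CPM in the 8 pools (read counts scaled to effective library size over all 16 libraries), so markers of the labelled tissue were present in all of them. Among the sham libraries, week 5 pool A stood apart from week 5 pool B, with a median difference of 0.427 on the log2 scale over 214 miRNAs of at least 20 CPM, against 0.102 to 0.175 between the 5/6Nx pools of a week. The part of depth in differences between weeks was not tested.

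Across the 8 pools, week 7 was the week that stood farthest from the others. The first principal component of log2 CPM held 54.51% of the variance and placed the week 7 pools at 8.96 and 10.06, the week 2 pools at -5.99 and -6.34, and the week 4 and 5 pools between -2.46 and -0.90. The second held 15.88% and set the week 4 pools, at -4.24 and -6.31, apart from the other 6, at 1.01 to 2.97. Pools of the same week correlated at r = 0.991 to 0.996 across miRNAs. Pools of different weeks correlated at r = 0.962 to 0.992, so the ranges overlapped. By edgeR's quasi-likelihood test 171 miRNAs differed among the 4 weeks (adjusted p under 0.05, 55.9% of those tested), and 117 differed among weeks 2, 4 and 5 alone (38.2%). In the sham pools 47 differed among the 4 weeks (15.4%), with a common dispersion of 0.0424 against 0.0113 in the 5/6Nx pools. When the spread was estimated from all 16 libraries, 118 miRNAs differed among the 5/6Nx weeks, 27 among weeks 2, 4 and 5, and 96 among the sham weeks.

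**Figure D1:**
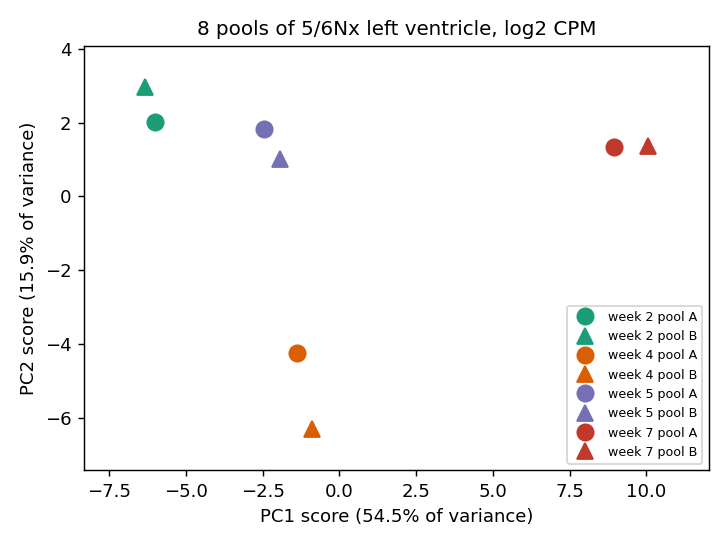
Scores of the 8 5/6Nx pools on the first principal component (horizontal axis, 54.5% of the variance) and the second (vertical axis, 15.9%) of log2 CPM, coloured by week, with circles for pool A and triangles for pool B. The week 7 pools sit at 8.96 and 10.06 on the horizontal axis and the week 4 pools lowest on the vertical axis.

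From week 2 to week 4 the miR-146 pair, known from inflammatory signalling, rose together with miRNAs of several unrelated hairpins. miR-146a-5p, which is induced by NF-kB and restrains Toll-like receptor signalling, had 663 and 617 CPM in the week 2 pools and 1896 and 2355 CPM in the week 4 pools. miR-146b-5p, with the same seed, went from 363 and 265 CPM to 842 and 812 CPM. The pools of weeks 2 and 4 did not overlap for either, as for 178 of 306 miRNAs (58.2%), and the log2 changes were 1.73 ± 0.13 and 1.40 ± 0.17 (SE, edgeR adjusted p = 8.99e-06 and 0.000134). In all, 55 miRNAs rose (18% of 306) and 44 fell (14.4%), which together is 32.4%; with TMM factors from the 8 libraries alone the split was 49 and 52. Without week 4 pool B, 64 passed.

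The single signal of miR-338-3p and miR-3065-5p rose 3.28-fold, from 100 and 74.9 CPM to 309 and 260 CPM (miR-338-3p, log2 1.71 ± 0.16, edgeR adjusted p = 4.06e-05). miR-183-5p, a miRNA best known from sensory cells, rose from 3.48 and 4.75 CPM to 14.5 and 17.7 CPM (log2 1.92 ± 0.37, adjusted p = 0.00352), and miR-3553, annotated on the opposite strand of that hairpin, moved with it (log2 1.98 ± 0.41). Among low miRNAs, rises passed for miR-384-5p with 0.696 and 2.11 CPM at week 2 and 10.5 and 7.65 CPM at week 4, and for miR-874-3p with 3.48 and 5.80 CPM followed by 15.7 CPM in both pools. The first of these rests on few counts. All of these pools lay apart, which is a condition of the rule by which these miRNAs were named.

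miR-21-3p, the passenger arm of the fibrosis-associated miR-21, had 105 and 79.6 CPM at week 2 and 41.8 and 39.5 CPM at week 4 (log2 -1.17 ± 0.17, edgeR adjusted p = 0.000494). The guide arm miR-21-5p had 7491 and 6300 CPM followed by 5510 and 5803 CPM and did not pass (log2 -0.29 ± 0.10, adjusted p = 0.0575). miR-326-3p, at 35.5 and 33.2 CPM before 19.7 and 16.5 CPM, and miR-532-5p, at 282 and 252 CPM before 176 and 94.2 CPM, fell by 0.91 and 0.97 on the log2 scale. The change of miR-532-5p was -0.59 without week 4 pool B and -1.50 without week 4 pool A, and it did not pass with the spread of all 16 libraries (edgeR adjusted p = 0.251). miR-702-3p, miR-26a-3p, miR-208a-5p and miR-19a-3p, a member of the growth-promoting miR-17-92 cluster, fell by 1.71, 1.25, 0.84 and 0.84 on the log2 scale, and miR-504 fell from 57.1 and 53.8 CPM to 32.5 and 22.1 CPM. The call of each of these 5 was lost with at least 1 library left out: without week 2 pool B the adjusted p was 0.124 for miR-702-3p and 0.115 for both miR-26a-3p and miR-19a-3p, without week 4 pool B it was 0.0804 for miR-504, and without week 4 pool A it was 0.0686 for miR-208a-5p.

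Read by list, the heart muscle miRNAs were split. Of 9 measured, 4 rose (miR-133a-3p, miR-208a-3p, miR-499-5p and miR-499-3p) and miR-208a-5p fell, with a median log2 change of 0.31 against -0.004 over all 306. The counts of each list here stand against 18% that rose and 14.4% that fell among all 306. miR-499-5p, encoded in the myosin gene Myh7b, had 967 and 754 CPM at week 2 and 1311 and 1188 CPM at week 4 (log2 0.54 ± 0.13, edgeR adjusted p = 0.00771, 0.0519 without week 4 pool A). For miR-133a-3p the adjusted p was 0.0315, and 0.214 without week 4 pool A. Of the let-7 family, which is abundant in differentiated tissue, 4 of 8 fell (let-7a-5p, let-7c-5p, let-7f-5p and let-7i-5p) and all 8 were below 0. Of the miR-15, miR-16 and miR-195 group, known to hold back cardiomyocyte division, 3 of 4 rose (miR-15b-5p, miR-16-5p and miR-195-5p). Both arms of the endothelial miR-126a rose, and so did 3 of 7 in the X-linked miR-322 cluster (miR-322-5p, miR-351-5p and miR-450a-5p), with an adjusted p of 0.0925 for miR-351-5p without week 2 pool A. Of the profibrotic list 1 of 10 rose (miR-199a-5p, log2 0.52 ± 0.15, adjusted p = 0.0183, 0.122 without week 4 pool B) and 1 fell (miR-21-3p).

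From week 4 to week 5 several miRNAs that had risen went back. With 21 that rose (6.86%) and 30 that fell (9.8%), 51 of 306 passed, which is 16.7%, and pools of weeks 4 and 5 did not overlap for 199 (65%). miR-191a-5p, one of the 10 most abundant miRNAs here, had 15094 and 14335, 26235 and 35034, 12436 and 13927, and 43072 and 48269 CPM in the pools of weeks 2, 4, 5 and 7. Its level in every week 4 pool was above every pool of weeks 2 and 5, and the fall was 2.32-fold (log2 -1.22 ± 0.13, edgeR adjusted p = 0.000187). miR-146a-5p returned to 845 and 925 CPM (log2 -1.26 ± 0.13, adjusted p = 0.000143) and miR-146b-5p to 395 and 441 CPM (log2 -0.98 ± 0.17, adjusted p = 0.00192).

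miR-126a-5p, the second arm of the endothelial miR-126, had 26841 and 26641, then 39072 and 54511, then 17150 and 19415 CPM in those first 3 weeks (fall of 2.56-fold, log2 -1.36 ± 0.14, edgeR adjusted p = 0.000143). miR-99a-5p, known as a repressor of mTOR, had 743 and 748 CPM, then 1340 and 1918, then 641 and 716 (log2 -1.26 ± 0.15, adjusted p = 0.000258). miR-342-3p had 21.6 and 44.8, then 64.2 and 77.7, then 30.9 and 38.4 CPM (log2 -1.02 ± 0.25, adjusted p = 0.0172, 0.104 without week 4 pool B). In each of these the week 4 pools were the highest of the first 3 weeks. miR-3068-5p fell from 44.4 and 46.7 CPM to 15.8 and 15.9 CPM (log2 -1.52 ± 0.22, adjusted p = 0.000792), and miR-136-5p, of the imprinted Dlk1-Dio3 cluster, from 5.23 and 6.44 CPM to 2.11 and 1.92 CPM (adjusted p = 0.0323, 0.168 without week 5 pool B).

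Rises at this step included the let-7 family. let-7f-5p, with 17322 and 19331 CPM followed by 13257 and 12392 CPM, stood at 21387 and 20102 CPM at week 5 (log2 0.69 ± 0.10, edgeR adjusted p = 0.000607). With it 4 of the 8 let-7 members rose (let-7a-5p, let-7d-5p, let-7f-5p and let-7i-5p), against 6.86% of all 306, and all 8 were above 0. miR-423-3p went from 123 and 74.1 CPM to 339 and 284 CPM (3.13-fold, log2 1.65 ± 0.21, adjusted p = 0.000299), and its other arm miR-423-5p from 130 and 116 to 276 and 202 CPM (adjusted p = 0.0221). miR-322-3p, miR-3068-3p, miR-504, miR-702-3p and miR-6329 rose by 0.78, 0.76, 0.99, 1.87 and 0.84 on the log2 scale.

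The step from week 4 to week 5 depended on single libraries. Without week 5 pool A, 17 miRNAs passed, and without week 2 pool B, which adds nothing to the difference itself, 67 did. Without week 5 pool A the adjusted p was 0.273 for miR-423-5p, 0.251 for miR-504, 0.152 for miR-322-3p and 0.124 for miR-3068-3p, and without week 4 pool B it was 0.0791 for miR-702-3p and 0.207 for miR-6329. With the spread of all 16 libraries 5 miRNAs passed, among them miR-146a-5p, miR-146b-5p and miR-3068-5p (edgeR adjusted p = 0.0195 for each) but not miR-191a-5p (0.118), miR-126a-5p (0.115), miR-99a-5p (0.12), let-7f-5p (0.118) or miR-423-3p (0.115). In that same fit the step from week 2 to week 4 kept miR-146a-5p (0.000283) and miR-338-3p (0.000197), while miR-191a-5p (0.0863), miR-99a-5p (0.0977), miR-126a-5p (0.184) and let-7f-5p (0.126) did not pass.

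**Figure D2:**
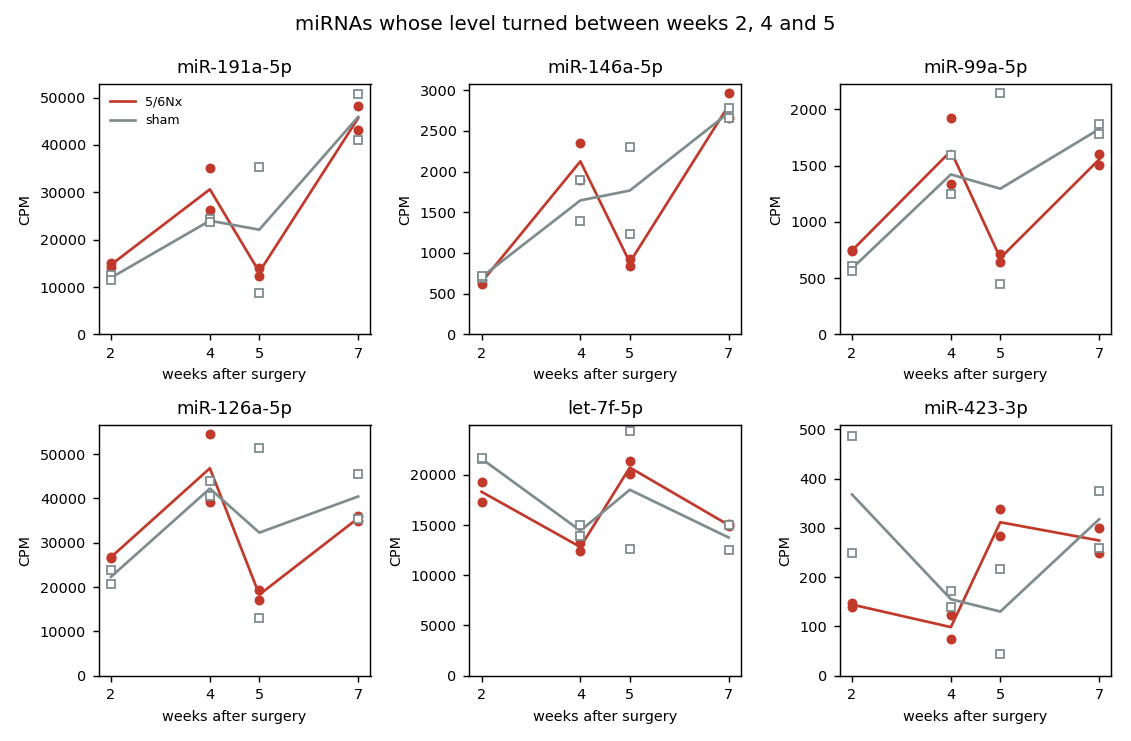
Level in CPM (vertical axes, from 0) against weeks after surgery (horizontal axes) for 6 miRNAs that turned between weeks 2, 4 and 5. Points are single pools, filled circles for 5/6Nx and open squares for sham, and lines join the means of 2 pools; miR-191a-5p in 5/6Nx reads 15094 and 14335, then 26235 and 35034, then 12436 and 13927, then 43072 and 48269 CPM, and the sham pools of week 5 read 35406 and 8817.

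At week 7, 69 miRNAs were higher than the mean of weeks 2, 4 and 5 (22.5%) and 71 were lower (23.2%), 140 of 306 in all (45.8%). Other scalings moved the median of all miRNAs up by as much as 0.11 on the log2 scale and changed this split, to 75 higher and 54 lower with DESeq2's size factors in edgeR, 70 and 43 with DESeq2 itself and 77 and 52 when the 5 most abundant miRNAs were left out of the library sizes. Both week 7 pools lay outside all 6 earlier pools for 126 miRNAs, which is 41.2%. The counts of each list at week 7 below stand against 22.5% that rose and 23.2% that fell among all 306. Without week 7 pool B, 86 passed.

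miR-146b-5p changed most among those that rose. Its 5766 and 4256 CPM at week 7 stood beside 363 and 265, 842 and 812, and 395 and 441 CPM at weeks 2, 4 and 5, a 10.5-fold rise (log2 3.39 ± 0.12, edgeR adjusted p = 3.39e-09). miR-146a-5p, which shares its seed, reached 2661 and 2963 CPM (2.64-fold, log2 1.40 ± 0.09, adjusted p = 1.16e-06). Its week 7 pools lay above all earlier ones, the higher week 4 pool at 2355 CPM included. Of the 9 leukocyte miRNAs, 5 rose (also miR-155-5p, miR-223-3p and miR-342-3p, the last with adjusted p = 0.107 without week 7 pool B) and 2 fell (miR-142-3p and miR-150-5p), so the list did not move one way. The leukocyte markers miR-142-3p, miR-142-5p, miR-150-5p, miR-155-5p and miR-223-3p were also summed in sham, with 1323 and 1219 CPM at week 7 after 1436 to 3465 CPM. Of them, miR-150-5p passed downward in sham too. In 5/6Nx the same markers summed to 1181 and 1050 CPM at week 7 and to 1590 to 2568 CPM in the earlier pools. The lymphocyte miRNA miR-150-5p, at 697 and 615 CPM after 1109 to 2108 CPM, fell by 1.17 on the log2 scale (adjusted p = 4.59e-05), and the macrophage-induced miR-155-5p stood at 29.1 and 48.2 CPM after 17.6 to 25.4 CPM (adjusted p = 0.0153, 0.271 without week 7 pool B). For the myeloid miR-223-3p the levels were 81.4 and 67.1 CPM after 42.3 to 62.6 CPM (adjusted p = 0.0151, 0.205 without week 7 pool A). For miR-142-3p they were 43.7 and 43.0 CPM (adjusted p = 0.0293), a call lost under 6 of the 8 libraries left out in turn, with adjusted p up to 0.127.

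Of the 10 profibrotic and prohypertrophic miRNAs measured, 9 rose and all 10 had a log2 change above 0, as did 132 of all 306. The median log2 change of the list was 1.30 against -0.066 over all 306. miR-21-5p, raised in cardiac fibroblasts under stress, stood at 11990 and 11791 CPM after 5510 to 7491 CPM, so that both week 7 pools lay above all earlier ones (1.95-fold, log2 0.96 ± 0.08, edgeR adjusted p = 2.8e-06). Its passenger arm miR-21-3p stood at 243 and 230 CPM after 34.4 to 105 CPM (4.61-fold, log2 2.20 ± 0.12, adjusted p = 1.9e-07). miR-132-3p and miR-212-3p, neighbours with 1 seed that drive cardiomyocyte growth in mice, reached 73.4 and 79.1 CPM after 17.9 to 22.9 CPM, and 16.5 and 17.2 CPM after 2.11 to 6.10 CPM. Their log2 changes were 1.90 ± 0.15 and 2.03 ± 0.30 (adjusted p = 2.5e-06 and 0.000196). In sham 2 of the 10 passed at week 7, both upward (miR-21-3p and miR-222-3p), and the list median was 0.10. For both of these, the difference in the week 7 change between the surgeries did not pass.

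miR-221-3p and miR-222-3p, the X-linked neighbours that share a seed, were at 353 and 289 CPM after 171 to 232 CPM and at 225 and 155 CPM after 49.4 to 79.0 CPM. The rise was 0.68 ± 0.13 for the first and 1.64 ± 0.15 for the second on the log2 scale (edgeR adjusted p = 0.00128 and 5.6e-06), and the passenger arm miR-221-5p rose from 4.03 to 5.97 CPM in the earlier pools to 26.5 and 19.8 CPM (log2 2.35 ± 0.25). miR-199a-5p, at 523 and 519 CPM after 289 to 520 CPM, overlapped with the earlier pools (log2 0.38 ± 0.12, adjusted p = 0.0229, 0.104 without week 7 pool A). miR-214-3p, transcribed with miR-199a, had 58.9 and 66.2 CPM after 44.8 to 65.2 CPM and was the member that did not pass (log2 0.23 ± 0.18, adjusted p = 0.332).

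The miRNAs of the myosin introns parted. miR-208b-3p, encoded in the slow myosin gene Myh7, was at 3882 and 4397 CPM at week 7 after 1014 to 1920 CPM (2.72-fold, log2 1.44 ± 0.16, edgeR adjusted p = 1.8e-05). miR-208a-3p, of the fast myosin gene Myh6, was at 577 and 559 CPM after 641 to 1031 CPM (log2 -0.53 ± 0.10, adjusted p = 0.00181), and its 5p arm at 29.8 and 34.4 CPM after 50.7 to 132 CPM (log2 -1.17 ± 0.20). miR-499-5p was at 722 and 755 CPM and so only just overlapped with the lower week 2 pool at 754 CPM (log2 -0.55 ± 0.11, adjusted p = 0.00163). miR-1-3p, the most studied muscle miRNA, stood at 3724 and 4207 CPM after 1475 to 2833 CPM (log2 0.90 ± 0.17, adjusted p = 0.00153). miR-133a-3p, made from the same transcripts as miR-1, had 48258 and 45362 CPM and did not pass (log2 -0.03 ± 0.11, with a sign that turned under other scalings), nor did miR-133b-3p at 26.5 and 13.8 CPM (log2 -0.38 ± 0.23). Of the 9 measured, 2 rose and 3 fell, against 22.5% and 23.2% of all 306.

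Of the 13 antifibrotic members of the miR-29 and miR-30 families, 9 fell and none rose, with a median of -0.34. Under DESeq2's size factors in edgeR 6 fell and 1 rose, and with DESeq2 itself 4 fell and 1 rose. In sham the median was -0.39, with 10 of 13 below 0 and 3 that passed, and the median difference between the surgeries was -0.05, with 0 that passed. miR-30c-5p, which represses connective tissue growth factor, was at 5442 and 5121 CPM after 7772 to 9526 CPM (log2 -0.71 ± 0.08, edgeR adjusted p = 3.55e-05), and miR-30b-5p at 725 and 704 CPM after 1392 to 2288 CPM (log2 -1.27 ± 0.09, adjusted p = 1.17e-06). miR-29c-3p was at 355 and 339 CPM after 494 to 813 CPM (log2 -0.80 ± 0.11, adjusted p = 0.000153), all below the earlier pools. miR-29b-3p, at 123 and 103 CPM after 99.0 to 131 CPM, showed no difference that passed (log2 0.02 ± 0.16).

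miR-34a-5p, a p53 target that rises in ageing hearts, was at 202 and 190 CPM after 69.1 to 103 CPM (2.20-fold, log2 1.14 ± 0.11, edgeR adjusted p = 1.07e-05). miR-34c-5p and the hypoxia miRNA miR-210-3p, at 350 and 352 CPM after 240 to 332 CPM, completed the 3 of 3 measured in this list that rose, but the call of miR-210-3p was lost without either week 7 pool (adjusted p up to 0.0633). Of the miR-23, miR-24 and miR-27 group 5 of 9 rose, led by miR-24-3p at 3365 and 3175 CPM after 891 to 2110 CPM (log2 1.31 ± 0.11, adjusted p = 3.18e-06). In sham miR-24-3p passed upward at week 7 too, and no member of this group passed for the difference between the surgeries. Of miR-17-92 and its paralogs 5 of 11 fell, but 3 did with DESeq2's size factors in edgeR, 2 with library sizes without the 5 most abundant and 1 with DESeq2. Of the miR-181 family 4 of 7 fell, and 3 with DESeq2. Among the low miRNAs, miR-7a-5p rose to 11.2 and 13.8 CPM after 1.39 to 3.87 CPM (log2 2.33 ± 0.33, adjusted p = 0.000152) and miR-147 to 5.95 and 11.2 CPM after 0.548 to 2.64 CPM (adjusted p = 0.00372, 0.0723 without week 7 pool B).

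**Figure D3:**
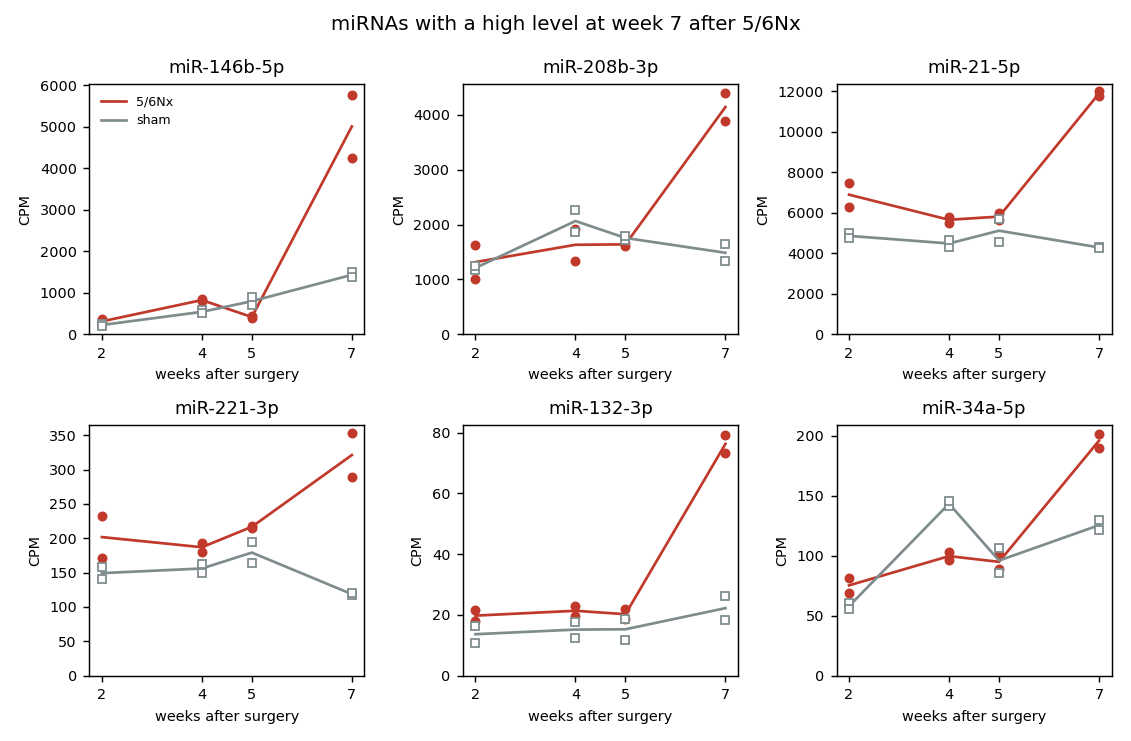
Level in CPM (vertical axes, from 0) against weeks after surgery (horizontal axes) for 6 miRNAs high at week 7 after 5/6Nx, drawn as single pools (filled circles for 5/6Nx, open squares for sham) with lines through the means of 2 pools. In 5/6Nx, miR-146b-5p reaches 5766 and 4256 CPM and miR-208b-3p 3882 and 4397 CPM at week 7, above all earlier pools.

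Among the miRNAs that were lower at week 7 were both arms of miR-3585. miR-3585-3p was at 3.97 and 2.58 CPM after 18.9 to 32.7 CPM (7.23-fold lower, log2 -2.85 ± 0.30, edgeR adjusted p = 1.69e-05), and miR-3585-5p at 93.9 and 67.1 CPM after 238 to 426 CPM (log2 -1.89 ± 0.18, adjusted p = 8.39e-06). The 1 signal of miR-434-3p and miR-3543, which are annotated on opposite strands within the imprinted gene Rtl1, stood at 23.2 and 19.8 CPM for miR-434-3p after 70.1 to 131 CPM (log2 -2.12 ± 0.18, adjusted p = 2.8e-06). miR-872-3p had 19.2 and 21.5 CPM after 70.5 to 132 CPM (log2 -2.11 ± 0.19, adjusted p = 4.83e-06). For these the week 7 pools lay well below all others, pools apart being a condition of the naming rule.

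miR-145-5p, of the smooth muscle transcript Carmn, was at 458 and 381 CPM after 915 to 1251 CPM (log2 -1.30 ± 0.11, edgeR adjusted p = 2.8e-06). Its co-transcribed neighbour miR-143-3p, the most abundant miRNA, was at 276770 and 346747 CPM after 155543 to 223549 CPM (log2 0.67 ± 0.11, adjusted p = 0.000543), and the other arm miR-145-3p at 599 and 693 CPM after 178 to 316 CPM (log2 1.32 ± 0.10, adjusted p = 1.68e-06). The 2 arms of 1 hairpin therefore went in opposite directions. With the spread of all 16 libraries miR-143-3p did not pass (edgeR adjusted p = 0.0678). In sham, miR-143-3p and miR-145-5p together summed to 340749 and 295678 CPM at week 7 after 82782 to 259430 CPM. No smooth muscle miRNA passed for the difference in the week 7 change between the surgeries. miR-497-5p was at 170 and 175 CPM after 336 to 494 CPM (log2 -1.25 ± 0.10). It passed downward in sham too, and its difference between the surgeries did not pass. miR-32-5p and miR-3577 fell by 1.87 and 1.77 on the log2 scale. Without week 7 pool A these values were -1.27 and -1.16 and did not pass (edgeR adjusted p = 0.142 and 0.0733). miR-10a-3p had 1 count in the week 7 pools and 47 in the 6 earlier ones, a ratio of 0.125 by library size (95% exact interval 0.00311 to 0.733, counting error only).

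Steps in one direction over all 4 weeks were rare. Every pool of a week lay above every pool of the week before for 5 miRNAs (1.63%) and below for another 5 (1.63%), against 3 (0.98%) and 4 (1.31%) in sham. Of the 5 that climbed, 4 were of the miR-125 group: miR-125b-5p, its opposite-strand entry miR-3588, miR-125b-2-3p and miR-125a-5p. Since miR-125b-5p and miR-3588 are 1 signal, as are miR-378a-5p and miR-3557-3p among those that fell, both counts of 5 hold 1 signal under more than 1 name. miR-125b-5p, a vertebrate relative of the worm miRNA lin-4, went from 1767 and 1600 CPM to 2627 and 2444, 2657 and 2916, and 3780 and 3825 CPM (edgeR adjusted p = 2.73e-05 over the 4 weeks). miR-351-5p, of the X-linked miR-322 cluster, went from 717 and 912 CPM to 1826 and 2034 CPM. In sham it passed upward at week 7 too, and its difference between the surgeries did not pass. Those that fell in every step were miR-331-3p, from 64.7 and 58.0 CPM to 19.2 and 14.6 CPM, miR-872-3p, miR-29c-5p and the signal of miR-378a-5p and miR-3557-3p, from 181 and 164 CPM for miR-378a-5p to 87.3 and 66.2 CPM.

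**Figure D4:**
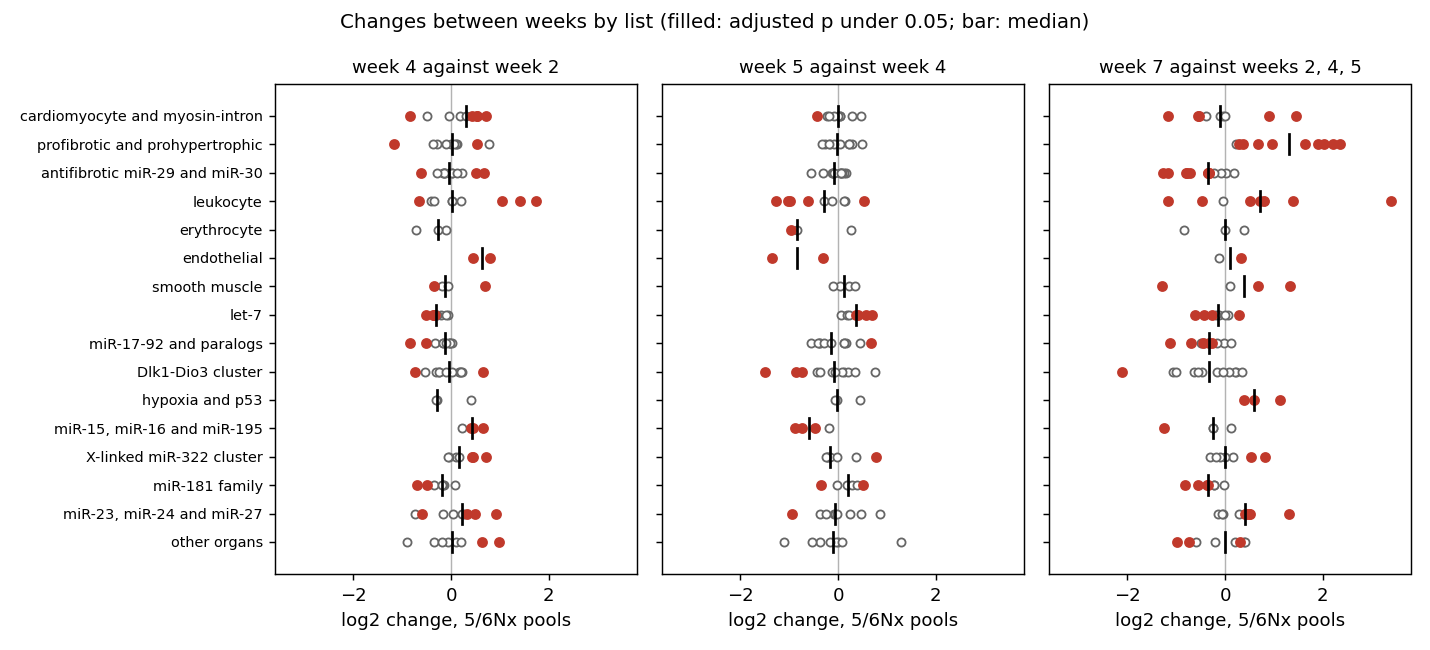
Log2 change between weeks in the 5/6Nx pools (horizontal axes) for each measured member of 16 lists (rows), in the 3 comparisons of weeks. Filled points passed at an adjusted p under 0.05, open points did not, and black bars are medians; at week 7 the profibrotic median is 1.30 and 9 of its 10 members are filled.

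The 10 most abundant miRNAs of the 5/6Nx pools were miR-143-3p, miR-22-3p, miR-30a-5p, miR-27b-3p, miR-26a-5p, miR-133a-3p, miR-126a-5p, miR-191a-5p, miR-181a-5p and miR-30e-5p. miR-22-3p, a miRNA of the hypertrophic heart, rose between weeks 2 and 4, from 94803 and 98281 CPM to 172640 and 154812 CPM (log2 0.76 ± 0.09, edgeR adjusted p = 0.000122), and then stayed between 149145 and 164991 CPM. miR-30a-5p, at 68274 to 78022 CPM over all 8 pools, and miR-181a-5p, at 22726 to 30057 CPM, did not differ among the weeks (adjusted p = 0.5 and 0.586). miR-27b-3p was higher at week 7, at 62861 and 66121 CPM after 41194 to 49267 CPM (log2 0.49 ± 0.07), and miR-30e-5p lower, at 20789 and 20275 CPM after 23644 to 28025 CPM (log2 -0.33 ± 0.08, adjusted p = 0.00666, 0.0705 without week 7 pool B). The red cell miRNA miR-451-5p was uneven between pools, with 631 and 397, 625 and 322, 162 and 369, and 251 and 197 CPM, and passed neither step nor at week 7.

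The sham pools of the same weeks, which share no library with these, were compared with them. Over all 306 miRNAs tested, the week 7 changes of the edgeR fits correlated between sham and 5/6Nx at r = 0.545. Changes were also taken from pool means, over 214 miRNAs of at least 20 CPM. These correlated at r = 0.79 (rho = 0.73) for week 7 and at r = 0.68 (rho = 0.64) from week 2 to week 4. The week 7 values of r therefore differ in measure as well as in miRNAs. The correlation for week 5 against week 4 was 0.25, and 0.64 without week 5 sham pool A. These describe miRNAs that share libraries, depth and table. In sham 22 miRNAs were higher at week 7 (7.19%) and 25 lower (8.17%), 47 in all (15.4%), of which 38 also passed in 5/6Nx, all in the same direction (27.1% of the 140 and 80.9% of the 47). Leaving out pool A of week 7 from the sham fit gave 3 in place of 47, and leaving out pool A of week 5 gave 101. Of the 140, 18 had a sham change of the opposite sign. Both week 7 sham pools lay outside the earlier sham pools for 91 miRNAs (29.7%).

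miR-191a-5p in sham read 12483 and 11443, 24276 and 23753, 35406 and 8817, and 50854 and 41023 CPM, so that the week 5 pools stood on opposite sides of week 4. miR-146a-5p rose in sham at week 7 by 1.10 ± 0.21 on the log2 scale, and the difference from 5/6Nx was 0.30 ± 0.27 (edgeR adjusted p = 0.645). The fall of miR-145-5p was -1.20 ± 0.17 in sham, that of miR-434-3p -1.52 ± 0.28, that of miR-30b-5p -1.17 ± 0.17 and the rise of miR-1-3p 1.02 ± 0.15. Differences in these changes between the surgeries were -0.10 ± 0.18, -0.60 ± 0.33, -0.10 ± 0.17 and -0.12 ± 0.26, and none passed. From week 2 to week 4 the mean summed level of let-7 fell in sham too, from 53632 to 40809 CPM. The miR-15, miR-16 and miR-195 group rose in sham from 5453 to 8227 CPM and miR-126a from 26485 to 47769 CPM, as they did in 5/6Nx. The miR-322 cluster went from 3344 to 3430 CPM in sham and from 2596 to 3763 CPM in 5/6Nx. In sham the leukocyte list, with the miR-146 pair, summed to 3903 and 4419 CPM, then 4370 and 3984 CPM at these weeks. The 5 leukocyte markers within it fell from 2920 and 3465 CPM to 1808 and 2006 CPM. The rest of the list, which includes the miR-146 pair, was therefore higher at week 4 than at week 2 in sham too. The miR-146 pair alone was not tested at this step in sham.

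The difference between surgeries in the week 7 change passed for 4 miRNAs (1.31%), all higher after 5/6Nx, and 44 had an unadjusted p under 0.05. miR-146b-5p in sham stood at 1493 and 1377 CPM at week 7 after 209 to 902 CPM, a rise of 1.64 ± 0.15, and its extra rise after 5/6Nx was 1.76 ± 0.22 (edgeR adjusted p = 0.00037). miR-208b-3p in sham stood at 1330 and 1641 CPM after 1181 to 2257 CPM, within the range of the earlier weeks (difference 1.59 ± 0.25, adjusted p = 0.00144). miR-21-5p in sham stayed between 4262 and 5696 CPM in all 8 pools (difference 1.13 ± 0.16, adjusted p = 0.000807). miR-221-3p in sham had 118 and 120 CPM after 141 to 195 CPM (difference 1.12 ± 0.22, adjusted p = 0.0106, 0.147 without week 7 sham pool A).

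**Figure D5:**
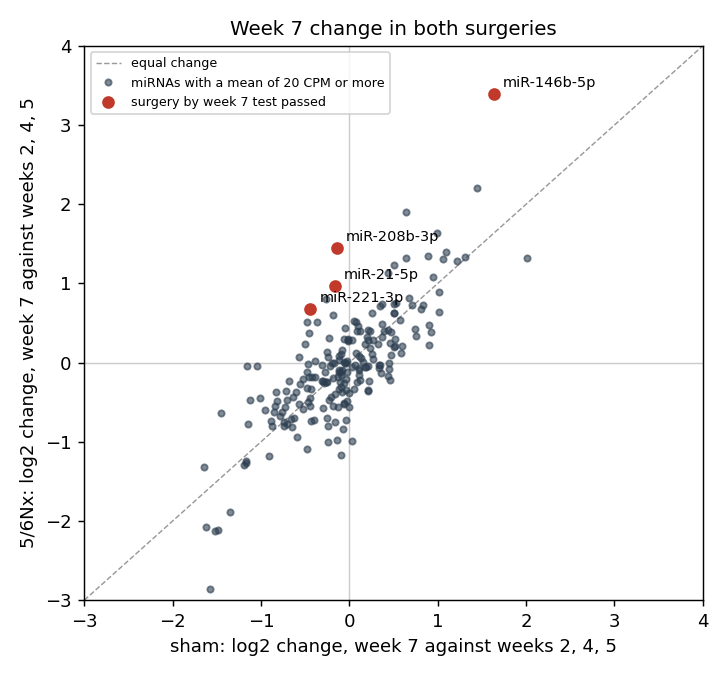
Log2 change of week 7 against the mean of weeks 2, 4 and 5 in sham (horizontal axis) and 5/6Nx (vertical axis), 1 point per miRNA of at least 20 CPM, with a dashed line of equal change. Changes of these miRNAs taken from pool means, rather than from the plotted edgeR fits, correlate at r = 0.79. The fitted changes of all 306 miRNAs correlate at r = 0.545. The 4 red points that passed the test of the difference, miR-146b-5p, miR-208b-3p, miR-21-5p and miR-221-3p, lie above the dashed line.

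All 10 members of the profibrotic list had a larger week 7 change after 5/6Nx than in sham, of which miR-21-5p and miR-221-3p passed, with a median difference of 0.97 against 0.02 over all 306. Differences that did not pass included other stress miRNAs. For miR-132-3p the difference was 1.26 ± 0.36 (edgeR adjusted p = 0.101), for miR-34a-5p 0.70 ± 0.20 (adjusted p = 0.101) and for miR-199a-5p 0.83 ± 0.21 (adjusted p = 0.087). Those with the smallest p on the lower side were miR-9a-5p, a neural miRNA, at 93.9 and 90.3 CPM in 5/6Nx and 211 CPM in both sham pools of week 7 (difference -1.02 ± 0.26, adjusted p = 0.087), miR-300-3p (-1.72 ± 0.47, adjusted p = 0.0871) and miR-181d-5p (-0.56 ± 0.16, adjusted p = 0.0941). Over all 4 weeks the surgery by week test passed for 5 miRNAs (1.63%), namely miR-146b-5p, miR-21-5p, miR-208b-3p and the 1 signal of let-7d-5p and miR-3596b. The count was 1 without either week 7 sham pool, 3 without 5/6Nx week 4 pool B or week 5 pool A, 27 with DESeq2, and 58 or 78 when pool A or pool B of sham week 5 was left out. miR-146b-5p passed with each library left out (edgeR adjusted p up to 0.00339), whereas the highest adjusted p was 0.0808 for miR-21-5p (without week 7 sham pool B), 0.139 for miR-208b-3p (without week 7 sham pool A) and 0.174 for let-7d-5p (without week 5 pool A of 5/6Nx). let-7d-5p was at 859 and 929, 925 and 775, 1100 and 1151, and 1208 and 1105 CPM in 5/6Nx and at 1147 and 1216, 1569 and 1432, 845 and 890, and 1149 and 1136 CPM in sham (adjusted p = 0.00764).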

How the data were processed

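Left ventricle small RNA libraries were made from RNA of frozen, ground tissue with a TruSeq small RNA kit and sequenced on an Illumina HiSeq instrument, per the labels' protocols. Bowtie, cutadapt and DESeq were used, per the submitters' processing notes. For genome build, miRNA annotation, settings and counting tool the entry is: not given in the sources used here. The deposited counts are raw reads per entry, 1 table per week, per the file headers. A table of reads and mapping rates was not used, since its pool numbers are not stated to follow the replicate numbers.

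The 317 rat miRNAs listed in all 4 tables were joined, without entries named for other species and loci, which can repeat the same reads. TMM factors were computed once over the 16 libraries (edgeR 4.0.16, R 4.3.3), and 306 miRNAs passed edgeR's filter over the 8 groups at a minimum count of 10. Of a list, members that are not among the 306 have no value. Differences among weeks were tested with edgeR's quasi-likelihood F test in fits of the 8 5/6Nx or the 8 sham libraries, and differences between surgeries in a fit of all 16, two-sided, with Benjamini-Hochberg adjustment over the 306 and a threshold of 0.05. An SE is the log2 change over the root of F. The scripts were tested on simulated data. Seeds are bases 2 to 8 of RefSeq sequences (GRCr8).

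Members, lists and the rule for named miRNAs were chosen with earlier results of these data known. Named are, per comparison, at most 8 miRNAs each way, by size of change, that passed with pools apart, filled to 3 by smallest p, then 26 chosen miRNAs, the 10 most abundant and those ordered over all weeks. Others in the text are list members chosen after their values were seen. Alternatives were DESeq2's size factors in edgeR, DESeq2 1.42.0, no filter, library sizes without the 5 most abundant, the pool letter as a block, all 16 libraries in the fit, TMM from the 8 libraries alone, and leaving out each library. With 2 pools a group, a library left out leaves 1 that is assumed to vary like the other groups.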

Additional observations from a re-analysis of the deposited data

Results flagged for a closer look

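The change from weeks 2, 4 and 5 to week 7 differed between 5/6Nx and sham ventricle, by an edgeR test of the difference itself, for miR-146b-5p (log2 1.76 higher after 5/6Nx), miR-208b-3p (1.59), miR-21-5p (1.13) and miR-221-3p (1.12). Both week 7 pools of 5/6Nx lay above both sham pools for each, which is a condition of the naming rule for this comparison. The share of such miRNAs among all those tested was not counted. Between weeks in 5/6Nx, 2 pools against 2 did not overlap for 58.2% (weeks 4 and 2) and 65% (weeks 5 and 4) of 306, so such separation is common. The test of surgery by week over all 4 weeks gave edgeR adjusted p = 0.000257 for miR-146b-5p, 0.00745 for miR-21-5p and 0.00764 for miR-208b-3p, and 0.00764 each for let-7d-5p and miR-3596b, which are 1 signal.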

How the results depend on the processing

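Counts of miRNAs that passed moved by more than 1.5 times in these cases. With all 16 libraries in the fit, 27 in place of 117 miRNAs differed among the 5/6Nx weeks 2, 4 and 5, 37 in place of 99 between weeks 4 and 2, 5 in place of 51 between weeks 5 and 4, 96 in place of 47 among sham weeks and 85 in place of 47 at sham week 7. That fit pools the spread of both surgeries. DESeq2 gave 27 in place of 5 for surgery by week; the cause was not tested. With 1 library left out, counts ranged from 143 to 170 for the 4 weeks in 5/6Nx, 78 to 113 for weeks 2, 4 and 5, 64 (without week 4 pool B) to 96 for week 4 against 2, 17 (without week 5 pool A) to 67 (without week 2 pool B) for week 5 against 4 and 86 (without week 7 pool B) to 137 for week 7. They ranged from 1 (without week 2 pool A) to 149 (without week 5 pool A) among sham weeks, 3 (without week 7 pool A) to 101 (without week 5 pool A) at sham week 7, 3 to 23 (without week 5 sham pool B) for the difference at week 7, and 1 (without week 7 sham pool A) to 78 (without week 5 sham pool B) for surgery by week. The correlation of the 5/6Nx and sham changes from week 4 to week 5 was 0.64 without week 5 sham pool A, an alternative chosen after seeing the data.

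With the pool letter as a replicate block, 174 miRNAs differed among the 5/6Nx weeks, 109 among weeks 2, 4 and 5, 94 between weeks 4 and 2, 43 between weeks 5 and 4, 136 at week 7, 50 and 57 in the sham tests, and 4 and 5 for the differences between surgeries. Deviations of same-lettered pools correlated at -0.37 to 0.13. Whether pools of 1 letter were handled together was not tested. Of the named miRNAs, 39 passed between weeks 4 and 2, 23 between weeks 5 and 4 and 60 at week 7, and 19, 15 and 20 of them lost the call with some library left out. No named change that passed turned its sign in the alternatives run. Among week 7 changes that did not pass, miR-133a-3p, at -0.03 on the log2 scale, turned its sign in 11 of 15 alternatives (-0.08 to 0.09), and miR-29b-3p, at 0.02, in 1 of 15.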
